A study of Mus musculus with 24 samples.

Results

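The 10 genes described here, Fos, Fosb, Jun, Junb, Atf3, Egr1, Egr2, Egr3, Nr4a1 and Nr4a3, are immediate early genes, taken by name as a list of activity-induced transcription factors. They are 10 of 55416 genes counted in the gastrocnemius muscle of C57BL/6J mice (C56BL6J in the sample labels), and all 10 were among the 16408 genes with enough counts to be tested. The muscles came from 4 groups of 6 mice, sham and SMC mice of each sex. SMC is the small mouse cage, a low box that restricts spontaneous movement, in which the mice lived for 8 weeks, and sham mice stayed ambulatory. The mice were wild type and bought at 8 weeks of age, and in the study all animals were fasted and given ketamine and xylazine before harvest, so every group shares both. The comparison asks whether restricted activity left a trace in genes that respond to activity.

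Immediate early genes are transcribed within minutes of a stimulus, from promoters that are already prepared, without need for new protein synthesis, and their transcripts decay quickly. In skeletal muscle they are known to respond to contraction, stretch, stress hormones and handling. Fos, Fosb, Jun, Junb and Atf3 encode leucine zipper proteins that pair to form the AP-1 family of dimers, Egr1, Egr2 and Egr3 encode zinc finger proteins, and Nr4a1 and Nr4a3 encode orphan nuclear receptors linked to glucose and lipid metabolism in muscle. Such a transcript therefore reports mainly on the period just before the tissue was taken. Any part of the weeks of housing cannot be told apart from it here.

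The sequence just before the start site is among the places where factors that switch genes on can bind. RefSeq promoter windows on GRCm38.p6 were at hand for 8 of the 10 genes, Egr1 and Egr3 being the exceptions. The 250 bases before the start are shown for Fos, Fosb and Junb, whose levels followed one another closely from mouse to mouse, and for Jun, which had the fewest pairs with other genes that passed the correlation test (3 of 9). Capitals mark TGACG, or CGTCA where it reads on the other strand, the core of the cyclic AMP response element through which CREB proteins act.
Fos (chr12:85473640-85473889, plus strand): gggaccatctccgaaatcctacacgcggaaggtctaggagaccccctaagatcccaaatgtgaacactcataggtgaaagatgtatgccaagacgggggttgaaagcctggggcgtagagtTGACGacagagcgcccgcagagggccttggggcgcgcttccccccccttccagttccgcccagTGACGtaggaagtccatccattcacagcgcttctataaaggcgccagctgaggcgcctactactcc
Fosb (chr7:19310046-19310295, minus strand): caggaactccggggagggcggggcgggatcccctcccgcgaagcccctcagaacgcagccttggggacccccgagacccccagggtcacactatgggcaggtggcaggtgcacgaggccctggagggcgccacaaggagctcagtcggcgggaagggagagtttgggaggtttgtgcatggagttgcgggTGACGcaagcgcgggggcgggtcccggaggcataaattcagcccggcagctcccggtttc
Junb (chr8:84978749-84978998, minus strand): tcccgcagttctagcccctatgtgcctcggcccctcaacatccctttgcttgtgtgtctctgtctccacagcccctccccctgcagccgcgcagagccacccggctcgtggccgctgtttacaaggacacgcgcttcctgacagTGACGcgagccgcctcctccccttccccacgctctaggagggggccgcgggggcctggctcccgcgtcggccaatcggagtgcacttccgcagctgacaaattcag
Jun (chr4:95052223-95052472, minus strand): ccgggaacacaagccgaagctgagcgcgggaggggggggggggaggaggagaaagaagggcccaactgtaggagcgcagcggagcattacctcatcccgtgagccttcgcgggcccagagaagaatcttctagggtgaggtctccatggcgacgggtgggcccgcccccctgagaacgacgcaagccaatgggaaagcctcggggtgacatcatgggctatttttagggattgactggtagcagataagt

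The Fos window held TGACG at 2 places, at bases -129 to -125 and -66 to -62 from the start site. Fosb and Junb held it at 1 place each, and Jun at none. Atf3, with 4 of 9 pairs that passed the correlation test, held it on the other strand at bases -7 to -3. Whether the core is related to how genes moved together was not tested. Over all 8 genes, 7 had at least 1 window with this core on either strand, and Nr4a1 and Nr4a3 had 4 matches each. The same core was present in 17.8% of all 32851 windows of the same length. The full element TGACGTCA, which contains the core and occurred in 1.55% of windows, was in none of the windows of these 8 genes. The CArG box, the site of serum response factor, was found only in Egr2, in windows of its later start sites, against 1.47% of all windows. A site for EGR proteins (GCGNGGGCG, 4.7% of windows) was present in Fosb and Nr4a1. A TATA box (TATAAA on the gene's strand, 7.59% of windows) was found only in Fos. The AP-1 site TGANTCA (6.75% of windows) and the NR4A site AAAGGTCA (439 of the 32851 windows) were in none. These are letter matches within 250 bases and not measured binding. Sites farther from the start, and sites spelled otherwise, were not searched, so a missing match does not show that a factor has no site.

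Counts per library summed to between 23026627 and 36880413, and levels are given as CPM, counts scaled to a common library total by the trimmed mean of M values (TMM). All 24 libraries matched their labelled sex. Summed levels of 9 skeletal muscle fibre genes lay between 75238 and 153341 CPM. In 2 libraries, male sham replicate 4 and female sham replicate 7, the 9 slow fibre genes summed to 86.6 and 72.2 CPM, against 706 to 4551 CPM in the other 22, so the results for the 10 genes and for the related genes named below were also computed without both. The labels tie no library to a cage or a harvest time. In whole muscle, fewer cells of a type and less RNA per cell cannot be told apart.

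Levels per kilobase of exon put Nr4a1 first, at a mean of 75.6 CPM per kb over the 24 mice. Fos followed at 54.1 and Jun at 44.9, then Junb at 23.3 and Egr1 at 22.1. Nr4a3, Fosb and Atf3 lay close together at 8.40, 6.97 and 6.47 CPM per kb, and Egr3 and Egr2 were scarce at 0.861 and 0.750. The ranges over mice of neighbours in this order overlapped throughout. The order within Nr4a1, Fos and Jun, or within Nr4a3, Fosb and Atf3, was not compared mouse by mouse. Jun, Junb and Atf3 each overlap a gene on the opposite strand in GENCODE M21 (Junos, Prdx2 and Gm24748). Whether the counting used strand is not given in the sources used here, so for these 3 genes reads of the partner cannot be separated.

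**Figure D1:**
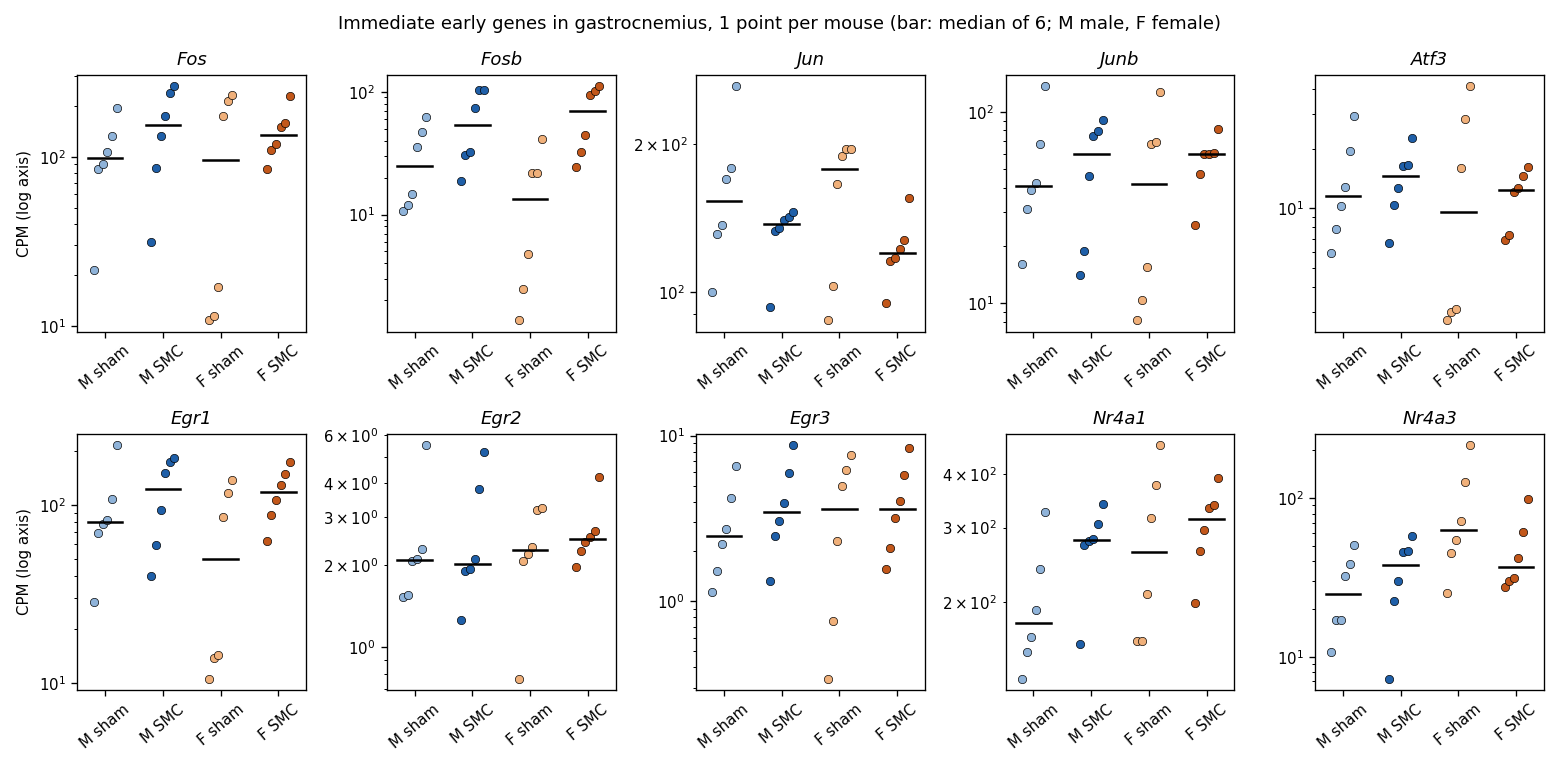
CPM of each of the 10 genes on log axes, with 1 point per mouse and a bar at the median of 6, for sham and SMC mice of each sex. In female sham mice Fos split into 3 mice at 10.9 to 16.98 CPM and 3 at 174 to 231 CPM, while the 6 female SMC mice lay between 84.2 and 227 CPM.

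Fos, the partner of the JUN proteins in the classical AP-1 dimer, was at a median of 98.4 CPM in male sham mice (lowest 21.4, highest 194) and 153 CPM in male SMC mice (31.3 to 259). In females the medians were 95.6 CPM in sham mice (10.9 to 231) and 134 CPM in SMC mice (84.2 to 227). The groups overlapped in both sexes. The log2 fold change of SMC against sham was 0.55 (SE 0.64, 95% interval -0.77 to 1.87, edgeR adjusted p = 0.814) in males and 0.37 (SE 0.64, interval -0.95 to 1.68, adjusted p = 0.870) in females. Both intervals reach past 3-fold on the upper side.

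Fosb, which also encodes the long-lived truncated protein that builds up in nerve cells under repeated stimulation, had the largest difference between housing conditions among the 10. In female sham mice it read 2.5, 41.4, 21.8, 1.4, 4.7 and 21.8 CPM in replicates 7 to 12. In female SMC mice it read 44.7, 101.4, 24.3, 110.4, 32.3 and 93.9 CPM in replicates 19 to 24. All 6 female SMC mice were above the median of the sham mice (13.3 CPM), and the groups overlapped because female sham replicate 8, at 41.4 CPM, lay above 2 of the SMC mice. The log2 fold change in females was 2.11 (SE 0.65, interval 0.76 to 3.46), a 4.32-fold difference, with an unadjusted p of 0.00354 and an adjusted p of 0.142 in edgeR. In males Fosb had a median of 25.0 CPM in sham mice (10.7 to 61.8) and 53.2 CPM in SMC mice (18.8 to 103), with 5 of 6 SMC mice above the sham median. The log2 fold change in males was 1.0 (SE 0.63, interval -0.30 to 2.30, adjusted p = 0.600). Averaged over the sexes, Fosb was 2.94-fold higher in SMC mice (log2 fold change 1.56, SE 0.45, unadjusted p = 0.00217), and the adjusted p of 0.0644 missed the threshold of 0.05. That averaged value passed with DESeq2 (adjusted p = 0.0284), with sample quality weights in voom (0.0113), without both libraries of low slow fibre RNA (0.0491) and without female sham replicate 8 (0.0370). It did not pass in any other fit, and the adjusted p ranged from 0.0113 to 0.108 over all of them.

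Jun, the main partner of the FOS proteins, differed the other way and by little. Its median was 153 CPM in male sham (100 to 262) and 138 CPM in male SMC mice (93.0 to 145). In females it was 177 CPM in sham (87.7 to 196) and 120 CPM in SMC mice (94.7 to 155). None of the 6 SMC mice of either sex lay above the median of their sham group, although the ranges overlapped. The averaged log2 fold change was -0.33 (SE 0.14, interval -0.63 to -0.03, unadjusted p = 0.0304, adjusted p = 0.222). Over all alternatives it lay between -0.39 and -0.20. Junb, an AP-1 member often opposed to Jun in its action, had medians of 40.9 and 60.5 CPM in male sham and SMC mice and 41.8 and 60.2 CPM in female sham and SMC mice, with log2 fold changes of -0.04 (SE 0.58) and 0.17 (SE 0.58). Atf3, a stress-induced repressor, gave -0.01 (SE 0.53) and -0.44 (SE 0.53). For neither did the direction hold in every alternative.

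Of the EGR genes, Egr1, induced by growth factors and by contraction, was at a median of 80.2 CPM in male sham (28.4 to 216) and 123 CPM in male SMC mice (39.9 to 184). In females it was 49.8 CPM in sham (10.6 to 137) and 118 CPM in SMC mice (63.0 to 175), and all 6 SMC mice exceeded the sham median. The log2 fold changes were 0.27 (SE 0.55, adjusted p = 0.908) in males and 0.91 (SE 0.55, interval -0.23 to 2.05, adjusted p = 0.538) in females. Egr2, known for its part in myelination, and Egr3, needed for muscle spindles, were at group medians of 2.02 to 2.49 CPM and 2.48 to 3.63 CPM. Their log2 fold changes lay between 0.11 and 0.46, each smaller than its standard error.

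The NR4A receptors differed in direction between genes and sexes, and neither passed the test. Nr4a1 had a median of 179 CPM in male sham (132 to 326) and 281 CPM in male SMC mice (160 to 340), with 5 of 6 SMC mice above the sham median and a log2 fold change of 0.44 (SE 0.25, interval -0.08 to 0.96, adjusted p = 0.540). In females it was 262 CPM in sham (162 to 468) and 315 CPM in SMC mice (200 to 392), a log2 fold change of 0.11 (SE 0.25, adjusted p = 0.910). Nr4a3 in males was 24.8 CPM in sham (10.7 to 51.0) and 37.9 CPM in SMC mice (7.28 to 57.9), a log2 fold change of 0.33 (SE 0.49). In females it was 63.3 CPM in sham (25.4 to 216) and 36.8 CPM in SMC mice (27.7 to 99.3), a log2 fold change of -0.88 (SE 0.48, interval -1.88 to 0.12, adjusted p = 0.477). The male minus female response of Nr4a3 was 1.21 (SE 0.69, unadjusted p = 0.0901), so the sexes were not shown to differ.

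**Figure D2:**
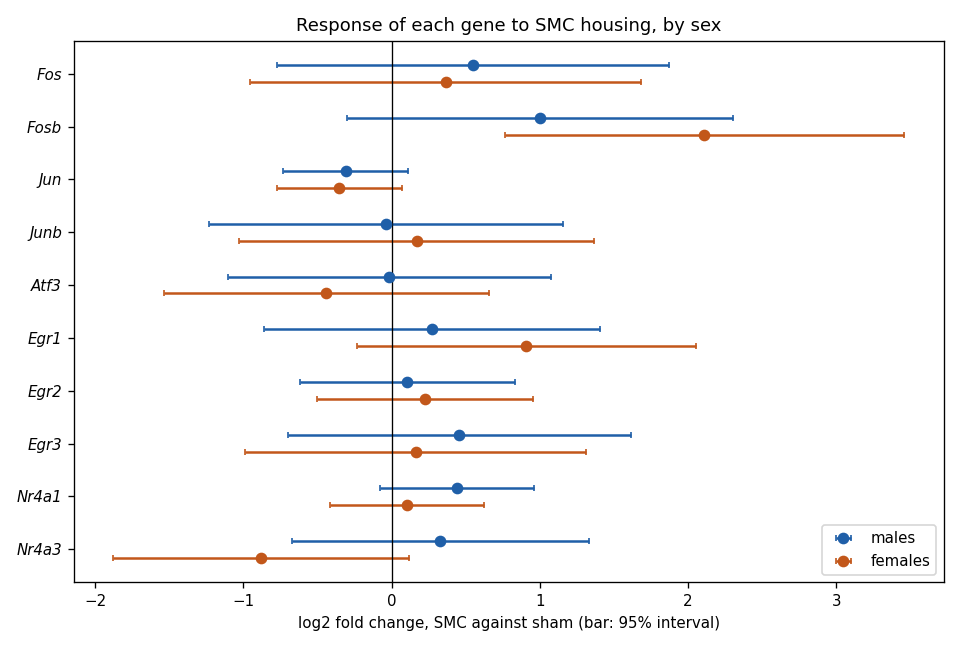
Log2 fold change of SMC against sham for each gene, in males and in females, with 95% intervals from edgeR. The interval lies to the right of 0 only for Fosb in females (0.76 to 3.46), and its adjusted p over all tested genes was 0.142.

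No gene of the 10 reached an adjusted p under 0.05 in either sex, and none had sham and SMC mice that did not overlap. In males, edgeR called 0% of all tested genes, and 0 of the 10 had an unadjusted p under 0.05, against 11% of all genes, while 0.902% of genes had no overlap between the groups. DESeq2 called 128 genes in males and voom 93, none of them among the 10. In females edgeR called 0.341% of all genes, 1 of the 10 (Fosb) had an unadjusted p under 0.05 against 12.5%, and 1.03% of genes had no overlap. DESeq2 and voom also called 0 of the 10 in females. For the response averaged over the sexes the count was 0 of 10 called against 2.36%, and 2 of 10 (Fosb and Jun) at an unadjusted p under 0.05 against 17.5%, while DESeq2 and voom each called 1, Fosb. For the difference of the response between the sexes 0% of all genes were called by edgeR, and 0 of the 10 passed an unadjusted p of 0.05 against 5.13%, with 0 of the 10 called by DESeq2 or voom. The median log2 fold change of the 10 was 0.30 in males and 0.17 in females, against 0.00 and -0.01 over all tested genes. Reads simulated at this depth and spread, with 6 against 6 mice as in the male comparison (16228 genes), gave a call for 80% of genes changed by 1 on the log2 scale and 95.9% of genes changed by 2. Most of the 10 genes varied more between mice than the typical gene of that simulation, so these shares do not apply to them. The simulation was not run at their spread.

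Between sham males and sham females, 1 of the 10 differed at an unadjusted p under 0.05, against 15.5% of all genes, and 0 were called against 1.97%. This was Nr4a3. It read 38.7, 17.2, 51.0, 17.1, 32.4 and 10.7 CPM in male sham replicates 1 to 6, and 71.9, 125.8, 54.6, 25.4, 44.8 and 215.7 CPM in female sham replicates 7 to 12. No male reached the female median of 63.3 CPM, and 3 of 6 males lay below every female. The groups still overlapped, whereas 1.13% of all tested genes had no overlap. The male minus female log2 difference was -1.69 (SE 0.49, interval -2.71 to -0.67), an unadjusted p of 0.00229 and an adjusted p of 0.0765. DESeq2 called it (adjusted p = 0.0374), voom did not (0.195), and without female sham replicate 10 edgeR gave 0.0453. These sham mice are also the reference of the response described above, so the lower Nr4a3 values of female SMC mice, which did not pass the test, and this sex difference rest on the same 6 sham females.

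The spread between mice of the same group was large for most of these genes. The biological coefficient of variation, the part of the spread that counting noise does not explain, was 0.740 for Fosb and 0.736 for Fos, above 99.2% and 99.1% of all tested genes, whose median was 0.167. Junb (0.674), Egr3 (0.667), Egr1 (0.640), Atf3 (0.624) and Nr4a3 (0.566) also lay among the 5% of genes with most spread. Egr2 (0.409), Nr4a1 (0.304) and Jun (0.249) did not, and Jun lay at the 72.4 percentile. Without both libraries of low slow fibre RNA, the same count of 7 of 10 remained among the top 5%. The trend of spread over all genes at the level of Fos was 0.175, against 0.736 for Fos itself.

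**Figure D3:**
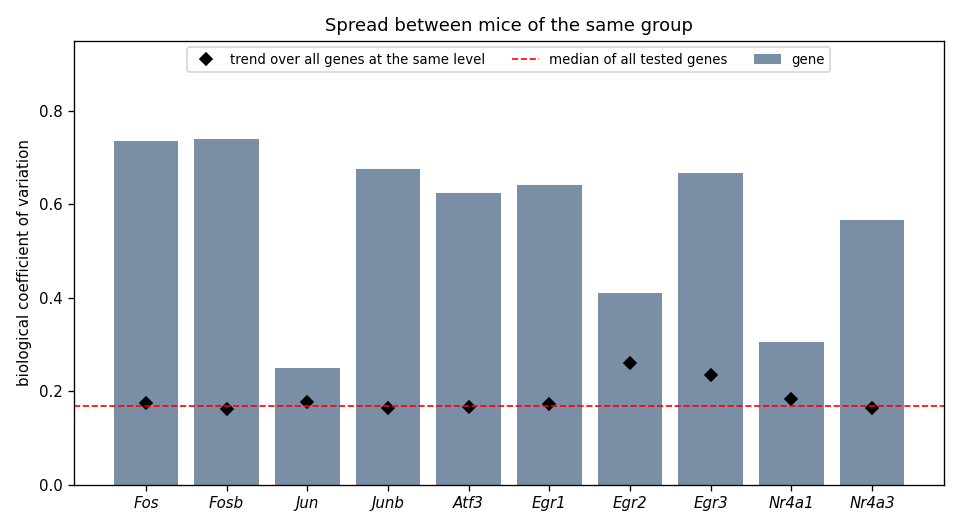
Biological coefficient of variation of each gene (bars), the trend over all genes at the same level (diamonds) and the median of all tested genes, 0.167 (dashed line). Fosb and Fos are highest at 0.740 and 0.736, and Jun is lowest at 0.249.

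The mice were divided at the widest gap in log2 CPM of Fos. Fos lay between 10.9 and 31.3 CPM in 5 mice and between 84.2 and 259 CPM in the other 19, with no mouse in between. Any set of values has a widest gap, and whether the mice form separate sets was not tested. The 5 were female sham replicates 7, 10 and 11, male sham replicate 6 and male SMC replicate 18. In female sham mice each of the 3 high mice was thus over 10-fold above each of the 3 low ones. Total counts of the library and the mitochondrial share of counts were only weakly related to Fos across mice after subtraction of group means (Pearson r = 0.19 and -0.04, Spearman rho = 0.19 and -0.03, permutation p = 0.282 and 0.864 for r and 0.360 and 0.913 for rho, adjusted p = 0.892 or above). Over 16 such properties and marker sums, each set against Fos and against Fosb, the strongest relation was that of Fos with the summed level of 7 neutrophil genes (r = 0.62, Spearman rho = 0.61, permutation p = 0.00397 and 0.00328, and 0.127 and 0.105 adjusted over 32 relations). It was r = 0.56 without the 2 mice farthest from the median of that sum. Those 7 genes summed to only 0.8003 to 5.87 CPM, and 3 of them passed the filter. The same sum gave r = 0.50 for Fosb (rho = 0.44, permutation p = 0.0302 and 0.0504, adjusted 0.483 and 0.807).

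The 10 genes tended to rise and fall together from mouse to mouse, Jun and Atf3 least regularly. For each gene the deviation of log2 CPM from its group mean was taken in all 24 mice, and each of the 45 pairs of genes was correlated. All 45 values of Pearson r were above 0, with a median of 0.61, and 33 had an adjusted permutation p under 0.05, while Spearman rho gave a median of 0.62 and 30 such pairs. The values of a mouse come from 1 library and share its scaling, and the part of this in the common movement was not tested. The median r of other tested genes with the mean deviation of the 10 was -0.02. That is r with a mean and not between pairs. TMM scaling levels most genes between libraries, so this value does not address the part of scaling.

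Fos and Junb were the closest pair, with r = 0.95 and rho = 0.96 (adjusted permutation p = 0.000225 and 9e-05), where 1e-05 is the smallest unadjusted p the resampling could give. Fos and Egr1 gave r = 0.94 (rho = 0.96, adjusted p = 0.0003 and 9e-05), and Junb and Egr1 gave r = 0.93 (rho = 0.95, adjusted p = 0.0003 and 9e-05). Fosb followed Egr1 with r = 0.89 (rho = 0.89, adjusted p = 0.000225 and 0.00015) and Fos with r = 0.85 (rho = 0.89, adjusted p = 0.0003 and 9e-05). Without the 2 mice farthest from the median of the first gene, these 5 pairs gave r = 0.93, 0.91, 0.94, 0.85 and 0.76. Nr4a1 also followed Junb (r = 0.82, rho = 0.85, adjusted p = 0.000643 and 0.000193). The weakest pair was Jun with Egr3 (r = 0.02, rho = 0.13, adjusted p = 0.930 and 0.591). Only 3 of 9 pairs with Jun and 4 of 9 with Atf3 passed, against all 9 with Fos and with Egr1.

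Because of the gap in Fos, the pairs were computed again in the 19 mice above it, a choice made after the values were seen. The median r fell to 0.46, 38 of 45 pairs were above 0 and 14 had an adjusted permutation p under 0.05. In these 19 mice r was 0.92 for Fos with Junb, 0.87 for Fos with Egr1, 0.86 for Junb with Egr1, and 0.75 for Fosb with Fos and with Egr1. Jun had low values there, with r = 0.17 for Fos and -0.36 for Nr4a3. Cutting the mice on Fos narrows the range of Fos and of genes that follow it. A lower r there therefore does not show that a relation fails. Within single groups of 6 mice the median r over pairs was 0.61 in sham and 0.73 in SMC males. It was 0.67 in sham and 0.54 in SMC females. Not every pair was above 0. Of the 45 pairs, 38 were above 0 in sham and 45 in SMC males, and 44 in sham and 39 in SMC females. Fos with Atf3 gave r = -0.33 in sham and 0.88 in SMC males, and 0.98 in sham and 0.54 in SMC females. Male SMC replicate 18 was the lowest of its group in 7 of the 10 genes, and without that mouse 21 pairs passed in place of 33.

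**Figure D4:**
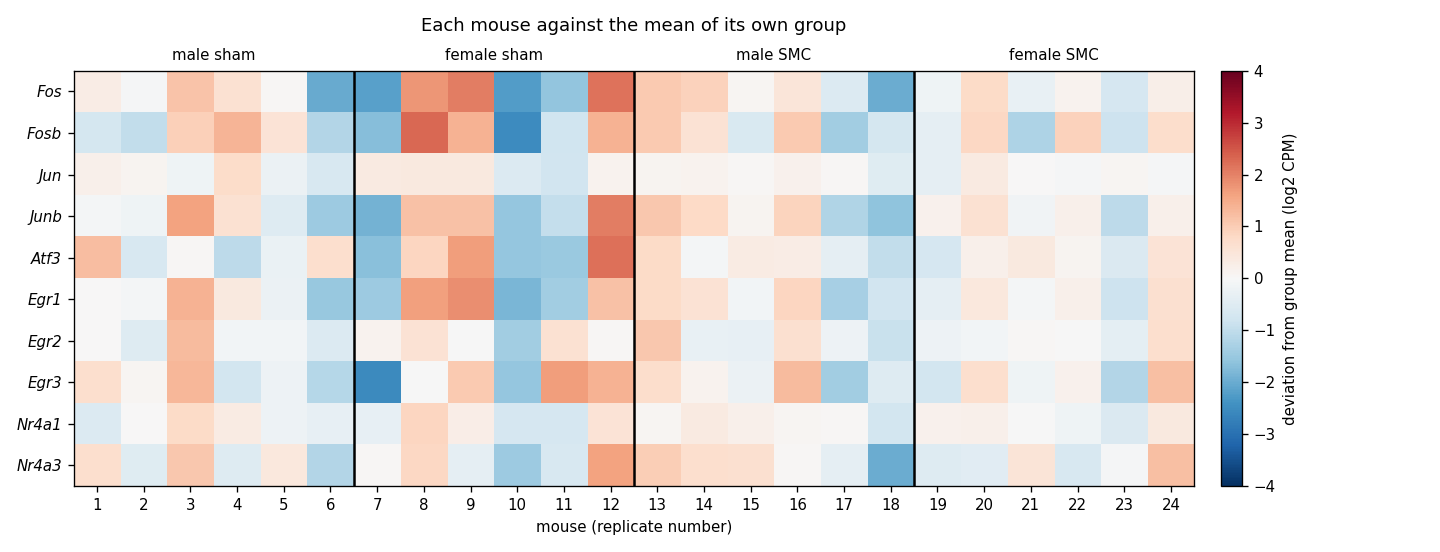
Deviation of log2 CPM from the group mean for the 10 genes (rows) in the 24 mice (columns, by replicate number, in 4 groups). Columns tend to be red or blue throughout, as in female sham replicates 8, 10 and 12 and male SMC replicate 18, and the row of Jun is pale.

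**Figure D5:**
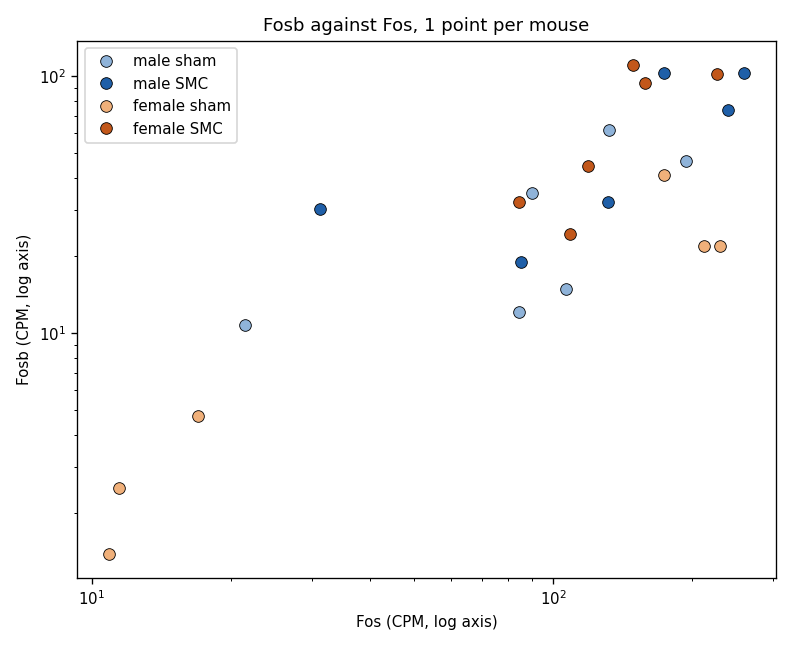
Fosb against Fos in CPM on log axes, with 1 point per mouse, coloured by group. The points rise together (r = 0.85 after subtraction of group means), and 5 of the 6 female SMC mice have more Fosb for their Fos than every female sham mouse.

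The tested genes outside the 10 whose deviations were most like their mean over the 24 mice were, in order, Btg2, Plk3, Jund, Dusp1, Ccnl1, Nr4a2, Apold1, Gem, Maff and Ier2, with r from 0.95 to 0.91. Btg2 is an antiproliferative early response gene, Plk3 a stress kinase, Dusp1 a phosphatase that switches off MAP kinases, and Jund and Maff are further leucine zipper genes. Of these 10, 7 stood on lists of related genes drawn up for this work, and Ccnl1, Apold1 and Gem did not. In the 19 mice above the gap in Fos their r was 0.75 to 0.94. Of all 16398 other tested genes, 48 had r above 0.8, among them 10 of 34 other immediate early genes, 5 of 15 feedback inhibitors and 3 of 7 other AP-1 genes, against 0 of 23 upstream regulators.

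Other AP-1 genes (7 tested of 10) gave no call in any comparison. Batf2 was the member of this list with the smallest p in females, with a log2 fold change of 2.39 (SE 0.81, adjusted p = 0.186). This rested on female SMC replicate 21, which had 5.25 CPM where the other 5 had 0 to 0.988 CPM, and without it the value was 0.77 (adjusted p = 0.703). Maff gave -1.39 (SE 0.53, adjusted p = 0.253), and -0.63 without female sham replicate 12. Atf4, the factor of the integrated stress response, was -0.29 (SE 0.12, adjusted p = 0.353) in males and -0.15 without male sham replicate 4. In the same comparison Batf2 was 1.35 (SE 0.91, adjusted p = 0.637). Nr4a2 and the EGR corepressors Nab1 and Nab2 (3 tested of 4) gave no call either. Nr4a2 was 1.03 (SE 0.53, adjusted p = 0.489) in males, and the log2 fold changes of Nab1 and Nab2 lay between -0.05 and 0.08 in both sexes.

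Of 34 other immediate early genes tested, none was called within a sex, and 4 fell in the response averaged over the sexes, while none rose. Cebpd and Cebpb, leucine zipper factors induced by glucocorticoids and cytokines, fell by 1.71 (SE 0.36, adjusted p = 0.0146) and 0.80 (SE 0.16, adjusted p = 0.0119) on the log2 scale. Ier5 fell by 0.57 (SE 0.15, adjusted p = 0.0420), and Mcl1, an antiapoptotic gene, fell by 0.23 (SE 0.06, adjusted p = 0.0329). Without male sham replicate 4 and female sham replicate 7, the libraries of low slow fibre RNA, Cebpd fell by 1.04 (SE 0.23, adjusted p = 0.0179) and Cebpb by 0.63 (SE 0.14, adjusted p = 0.0206), and Ier5 lost its call (adjusted p = 0.0609), while Cebpd was then also called in females. Ier5 also lost it in 16 of 24 fits with 1 library left out, and Mcl1 in 6 of 24 (replicates 1, 2, 15, 17, 18 and 19). Nfil3, a repressor tied to the clock, was -1.43 (SE 0.44, adjusted p = 0.140) in females. Ier3 was called between sham males and sham females, higher in males by 0.90 (SE 0.22, adjusted p = 0.0297), a call lost without both libraries (adjusted p = 0.0741) and in 5 of 12 fits with 1 library left out (replicates 1, 2, 3, 8 and 12). Its response to SMC was -0.46 (adjusted p = 0.423) in males and 0.49 (adjusted p = 0.351) in females. The median log2 fold change of the 34 genes was -0.12 averaged over the sexes, against -0.01 over all tested genes.

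Among the 23 tested upstream regulators, a list of kinases and of both activating and repressing factors, Mrtfa alone was called. Mrtfa encodes the actin-sensing coactivator of serum response factor. It had 20.2 to 33.0 CPM in the 6 female sham mice and 31.3 to 66.7 CPM in the 6 female SMC mice, and the log2 fold change was 0.93 (SE 0.18, adjusted p = 0.0228). In males it was 0.62 (SE 0.18, adjusted p = 0.185), and averaged over the sexes 0.77 (SE 0.13, adjusted p = 0.00296). The call in females was lost in 6 of 12 fits with 1 library left out (replicates 8, 11, 19, 20, 22 and 23), and the averaged call in none of 24. Without both libraries of low slow fibre RNA 4 of the 23 rose on average, Mrtfb, Crtc1 and Camk2a beside Mrtfa. The median biological coefficient of variation of all tested genes was then 0.153, against 0.167 with all libraries. The share of all genes called in that fit is not given here, so counts of calls with and without both libraries are not directly comparable. With all libraries Mrtfb, the relative of Mrtfa, was 0.28 in both sexes (SE 0.11, adjusted p = 0.328 in males and 0.255 in females). The 15 feedback inhibitors gave no call for SMC against sham, and 1 without both libraries, Spred1, lower on average: Dusp2 was -0.94 (SE 0.29, adjusted p = 0.145) and Spred1 -0.28 (SE 0.12, adjusted p = 0.332) in females, and Dusp10 0.50 (SE 0.26, adjusted p = 0.497) and Spred2 0.19 (SE 0.14, adjusted p = 0.656) in males.

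Of 14 tested genes that muscle regulates with activity or stress, 2 fell in females and 3 in the averaged response, and none rose. Mt2, a metallothionein, fell by 2.10 (SE 0.40, adjusted p = 0.0228) in females and by 1.90 (SE 0.29, adjusted p = 0.00296) on average. Pdk4, which restrains pyruvate oxidation, fell by 1.12 (SE 0.25, adjusted p = 0.04965) in females and by 0.82 (SE 0.18, adjusted p = 0.0166) on average, and Mt1 fell by 1.21 (SE 0.29, adjusted p = 0.0283) on average. These 5 calls held without both libraries of low slow fibre RNA. With 1 library left out, the female call was lost in 5 of 12 fits for Mt2 (replicates 8, 19, 20, 22 and 23) and in 9 of 12 for Pdk4, and the averaged call in 2 of 24 for Mt1 (replicates 8 and 18). Mt2 was also lower in sham males than in sham females, by -1.73 (SE 0.40, adjusted p = 0.0223), a call lost without replicate 1, 6 or 8. Ankrd1, a stretch-responsive gene, was -1.77 (SE 0.54, adjusted p = 0.206) in males and 0.61 (SE 0.53, adjusted p = 0.699) in females.

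Genes of other cell types and states were set beside these results. The 10 glucocorticoid-responsive genes all had lower values in SMC mice, 6 of 10 with an adjusted p under 0.05 in the averaged response and 0 within a sex, and their summed level was 861 to 2183 CPM in sham and 801 to 1155 CPM in SMC males, and 1097 to 2454 CPM in sham and 938 to 1138 CPM in SMC females. The highest sham sums were those of male sham replicate 4 and female sham replicate 7. Without both, sham males reached 861 to 1228 CPM and sham females 1097 to 2142 CPM, 9 of 10 genes had lower values in SMC mice in each sex, 3 of 10 were called in the averaged response and 1 in females. Of 7 smooth muscle and pericyte genes, 4 rose in the averaged response and none fell, with summed levels of 375 to 549 CPM in sham and 539 to 594 CPM in SMC males, and 392 to 547 CPM in sham and 501 to 579 CPM in SMC females. None of the tested genes on the lists for muscle fibres (9), slow fibres (9), endothelium (9), fibroblasts (8), macrophages (9), neutrophils (3), red blood cells (5), satellite cells (6), Schwann cells (6), adipocytes (6) or the circadian clock (14) was called in a comparison of SMC with sham. Without both libraries 1 fibroblast gene, Col1a2, was called, lower in female SMC mice. Per1 stands on the glucocorticoid, clock and other immediate early lists, and Myc on the lists of other immediate early and activity-regulated genes. The part of these lists in the differences of Fosb, Jun and Nr4a3 was not tested.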

How the data were processed

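Total RNA from gastrocnemius was prepared with an rRNA depletion kit and sequenced. The authors deposited raw gene counts. The submitters' processing notes name cutadapt 1.16, STAR 2.7.9a, featureCounts 1.6, DESeq2 1.34.0 and GRCm39, and the annotation release is not given in the sources used here. Symbols were matched to gene IDs, and rows without a symbol held 0.361% of counts. Genes were filtered with filterByExpr, scaled by TMM and fitted for all 24 libraries with edgeR 4.0.16 (quasi-likelihood test, Benjamini-Hochberg over 16408 genes, threshold 0.05), in R 4.3.3. The fit was tested on simulated data. DESeq2 1.42.0 and limma 3.58.1 (voomWithQualityWeights) were alternatives, as were other filters and size factors and leaving out libraries. For the related genes and lists, leaving out libraries was chosen after seeing the data. Log2 CPM used a prior count of 2. Correlations were tested by 100000 two-sided permutations of mice within groups. The edgeR p-values use an estimate of spread for each gene that is shared by all groups of 6 libraries. Groups that differ in spread, as female sham and SMC mice did for Fos, are not treated apart. The labels do not tie the libraries to cages or litters. Exon lengths came from GENCODE M21, whose build differs from that of the files, and no gene coordinates are taken from it. The genes named were the 10 genes, the 10 genes outside them most like their mean, and from each related list the called genes or else the 2 with the smallest p in each sex. The 10 genes and all lists were chosen with earlier results of these data known.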

Additional observations from a re-analysis of the deposited data

Results flagged for a closer look

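There were 40 groups of 6 values (10 genes in 4 groups). In 4 of them the highest or lowest mouse stood apart from the rest by more than 0.625 of the group's range. Chance alone gives about 1 in 20 groups where values are normal and groups are independent. The values here were CPM with wide ranges, and the 10 genes share the same mice and tended to move together. That rate therefore need not hold here. Jun was 93.0 CPM in male SMC replicate 18, where the next mouse had 133 CPM, and Nr4a1 was 160.0 CPM in the same mouse, where the next had 273 CPM. Egr2 was 5.52 CPM in male sham replicate 3, where the next mouse had 2.29 CPM, and 4.21 CPM in female SMC replicate 24, where the next had 2.67 CPM. Male SMC replicate 18 is also 1 of the 5 mice with low Fos.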

How the results depend on the processing

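The count of called genes among the 10 stayed at 0 in males, in females and for the sex difference in every alternative. Averaged over the sexes it was 1 (Fosb) with DESeq2, with voom quality weights and without both libraries of low slow fibre RNA, and 0 to 1 when single libraries were left out (1 without female sham replicate 8). Between sham males and females it was 1 (Nr4a3) with DESeq2 and 0 to 1 when single libraries were left out (1 without female sham replicate 10). Of 45 pairs, 21 to 36 passed when single mice were left out (21 without male SMC replicate 18), and 14 passed in the 19 mice above the gap in Fos. Signs of log2 fold changes turned for some genes that were not called, Atf3 in females (-0.44 with all libraries) having the largest value among them. Junb in males became 0.25 with voom and 0.0138 without both libraries, Atf3 in females 0.21 with voom, and Junb, Egr3 and Nab2 in females -0.0521, -0.0598 and -0.0501 without both. With single libraries left out, values ranged from -0.26 to 0.46 for Junb and -0.20 to 0.33 for Atf3 in males, -0.20 to 0.50 for Egr2 in males, -0.0519 to 0.71 for Junb, -0.66 to 0.12 for Atf3, -0.17 to 0.50 for Egr3, -0.0161 to 0.30 for Nr4a1 and -0.0496 to 0.185 for Nab2 in females. The cause was not tested. No paired analysis was done, because the labels give no pairing of mice. The paper states that paired housing of sham and SMC mice was used in some of its experiments. Whether this holds for these mice is not given. Depth limits Egr2 and Egr3 most, the scarcest of the genes, whose counts fell to 21 and 7 in single libraries.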

Other observations

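The ratio of related transcripts within a library does not depend on the scaling of libraries. Fosb counts divided by Fos counts were 0.0946 to 0.279 in the 6 female sham mice and 0.223 to 0.742 in the 6 female SMC mice, with 5 of 6 SMC mice above every sham mouse. The SMC ratio was 2.66-fold higher (exact permutation test on the log2 ratio, two-sided p = 0.00649, 0.0520 adjusted over 8 ratios by sex, with 0.00216 the smallest p that 924 relabelings allow). In males the ratio was 0.139 to 0.501 in sham and 0.221 to 0.9746 in SMC mice, 1.44-fold higher (exact p = 0.288). The ratio of Nr4a3 to Nr4a1 was 0.540 times as high in female SMC as in female sham mice (exact p = 0.0498, adjusted 0.199). The ratios of Junb to Jun and of Egr3 to Egr1 had exact p-values between 0.117 and 0.699 in both sexes. These ratios were chosen after the values of the genes had been seen.

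Female SMC mice resembled one another more than female sham mice did. The SD of log2 CPM was lower in female SMC than in female sham mice for all 10 genes, and for 70.0% of all tested genes. For Fos it was 2.20 in sham and 0.49 in SMC mice, for Atf3 1.78 and 0.51, for Egr1 1.72 and 0.54, and for Junb 1.66 and 0.57. A permutation test of absolute deviations from the group median gave an adjusted p of 0.0144 for Fos, Atf3 and Egr1. For Junb it was 0.0433, over 20 tests. Each group was centred on its own median before relabeling, so these p-values are approximate. Without female sham replicate 7 and male sham replicate 4 the SDs of Fos in females were 2.15 and 0.49. No adjusted p was then under 0.05 (0.657 for Fos), and 60.2% of all genes had a lower SD in female SMC mice. With all female sham mice the Fos median fell between the low and the high mice, and without replicate 7 it fell on a mouse. The p-values of both settings can therefore not be compared. In males 5 of the 10 genes and 64.0% of all tested genes had a lower SD in SMC mice, and the smallest adjusted p was 0.422. Without both libraries these were 6 of 10 and 48.9%. These tests were also chosen after the values had been seen.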
